A study of Mus musculus with 6 samples.

Results

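The genes of the DNA replication machinery were described in RNA from wild-type mouse 1-cell embryos. The list was given by gene name and held 44 genes for origin licensing, helicase activation, primase and polymerases, fork proteins and ribonucleotide reductase. All 44 were found by symbol among the 36065 Ensembl gene records of the table. The embryos were in culture with CBR-5884, an inhibitor of serine metabolism, together with S-adenosylmethionine (SAM), a methyl donor; with CBR-5884 alone; or with DMSO, the solvent control. The groups are named CBR+SAM, CBR and DMSO. Each had 2 libraries labelled as replicates, which makes 6 libraries, and all shared the wild-type genotype and culture of 1-cell embryos. The dose, the hours in culture and the number of embryos in a library are not given in the sources used here.

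Replication is prepared when the origin recognition complex, with Cdc6 and Cdt1, loads the MCM helicase on DNA, a step that geminin blocks by binding Cdt1. The Dbf4-Cdc7 kinase and cyclin-dependent kinase then bring Cdc45 and GINS to the loaded helicase, and primase, polymerases, sliding clamp and single-strand binding protein build the fork. In the mouse 1-cell embryo both pronuclei replicate while the genome is only starting to be transcribed, so the machinery is largely made from RNA and protein stored by the oocyte. A stored RNA can be silent or in use, and its abundance does not show which.

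Values are in the authors' deposited units. They look like kallisto abundances, which divide by transcript length, and levels of different genes are set side by side on that reading, which was not tested. Column sums lay between 998179 and 1059424 in CBR+SAM, 994268 and 1004406 in CBR and 956209 and 984962 in DMSO, and the read depth is unknown. Markers of the oocyte and 1-cell embryo summed to 39640 to 47860 in CBR+SAM, 41410 to 41870 in CBR and 37320 to 38980 in DMSO, and each of the 12 matched markers was above the level of 1 in at least 1 library. Markers of cumulus and granulosa cells summed to 9.97 to 15.9, with 13 of 15 below 1 in every library. Most of that sum was Cyp19a1, at 8.14 to 13.6. Blood markers summed to 0.0122 to 0.738, oviduct markers to 2.89 to 4.76, and sperm markers to 14.4 to 17.2. Most of the sperm sum was Prm2, at 9.86 to 14.7. Genes of the 2-cell stage summed to 47.1 to 63.4 in CBR+SAM, 36.2 to 44.9 in CBR and 42.0 to 56.2 in DMSO. The table is relative to each library's total, so fewer embryos and less RNA per embryo cannot be told apart.

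CBR+SAM replicate 2 stood apart from the other libraries. The SD across the tested replication genes of the log2 difference between the 2 replicates was 0.40 in CBR+SAM, 0.22 in CBR and 0.25 in DMSO. CBR+SAM replicate 2 was the lowest of the 6 libraries for 15 of 43 tested replication genes (34.9%) and for 27.5% of all 12249 genes tested. It was the highest for 13 of 43 (30.2%) and for 29.3% of all genes tested. Of 35 markers of cumulus, sperm, blood and oviduct cells, 5 (Pgr, Foxl2, Prm1, Hbb-bs and Hba-a1) were above 0 in this library alone, with 0.209 at most, against 0 to 2 in each other library. The part of such cells in its values was not tested. Changes of the replication genes named for CBR+SAM are also given with 1 of its replicates alone, in fits where the lone library is assumed to vary like the other groups.

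The replication genes were well represented in the RNA of these embryos, with large differences between partners of the same complex. RNA stored by the oocyte and newly made RNA were not told apart. Their median level, as a mean over 6 libraries, was 38.5, against 10.4 for the 11019 protein-coding genes tested. Of the 44 genes, 11 had a mean of at least 100 (25% by count, against 12.6% of tested protein-coding genes), 27 lay between 10 and 100, 5 between 1 and 10, and 1 below 1. Together they made up 0.501% and 0.519% of the summed abundance in CBR+SAM, 0.522% and 0.534% in CBR, and 0.493% and 0.527% in DMSO. A description of levels by role follows, from origin licensing to the fork.

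**Figure D1:**
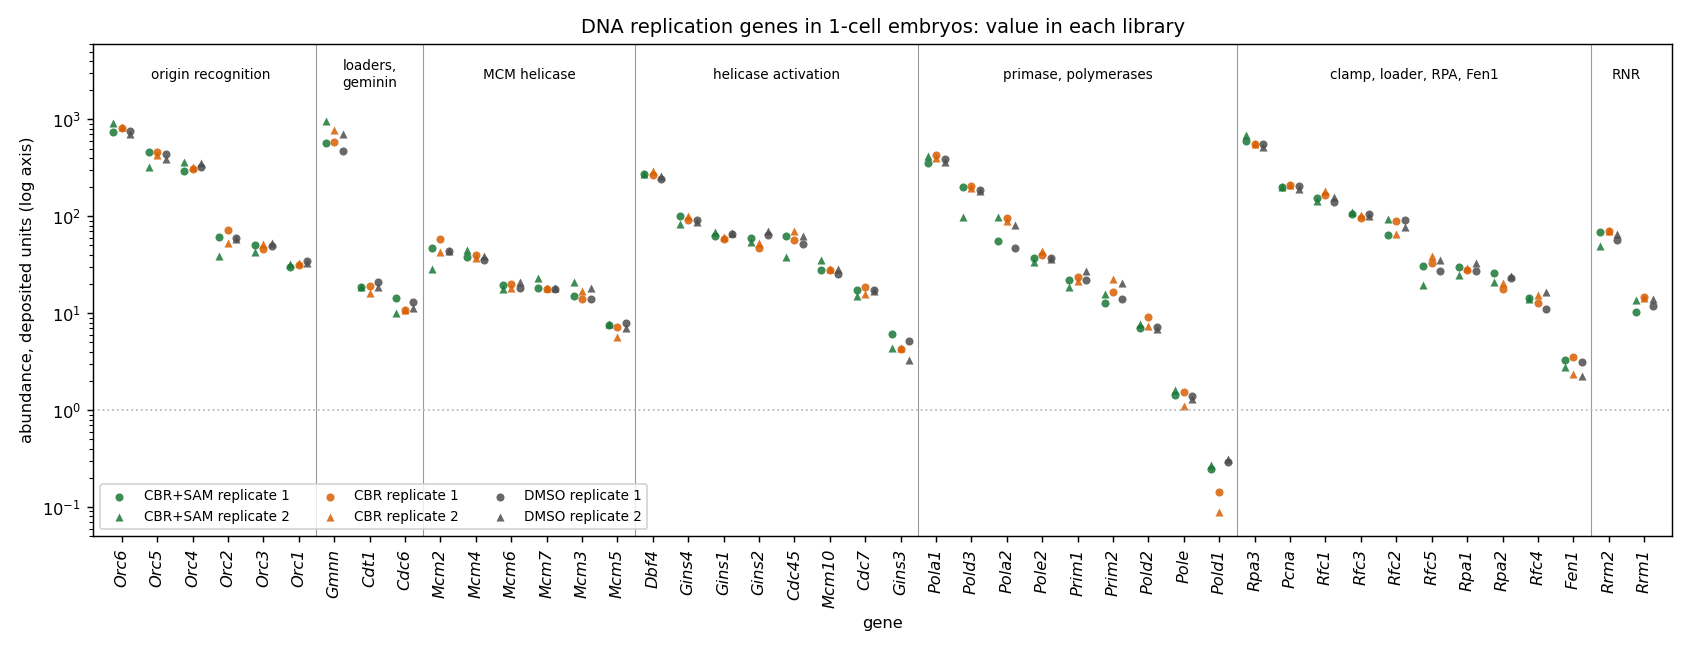
Abundance of each of the 44 genes in the 6 libraries on a log axis, grouped by role and ordered by mean within a role, with CBR+SAM in green, CBR in orange and DMSO in grey, replicate 1 as circles and replicate 2 as triangles. Partners of 1 complex lie far apart, from 909 to 30.3 in the origin recognition complex, while the 6 libraries of a gene lie close together, and Pold1 alone lies below the dotted line at 1 in every library.

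Among the 6 subunits of the origin recognition complex, which marks the sites where helicase is loaded, Orc6 was the most abundant. Orc6, the smallest and least tightly held subunit, had 742 and 909 in CBR+SAM, 809 and 826 in CBR, and 763 and 699 in DMSO. Orc1, an ATPase subunit that recruits Cdc6, was the lowest, with 30.3 and 32.1 in CBR+SAM, 31.6 and 32.7 in CBR, and 34.8 and 32.7 in DMSO. The Orc6 to Orc1 ratio was 21.4 to 28.4 over the 6 libraries, so the gap between subunits exceeded any difference between groups. The other subunits averaged 417 for Orc5, 328 for Orc4, 57.5 for Orc2 and 48.9 for Orc3. The ranges over libraries of Orc5 and Orc4 overlapped, as did those of Orc2 and Orc3, and the remaining neighbours in that order did not. As background, Orc6 mRNA in mouse oocytes is dormant and is recruited for translation during maturation, and embryos without that recruitment do not replicate their DNA.

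Loading factors and their inhibitor were far from balanced. Gmnn, which encodes geminin, had 571 and 969 in CBR+SAM, 586 and 772 in CBR, and 476 and 713 in DMSO, with replicate 2 above replicate 1 in each group. Cdt1, the target of geminin, averaged 18.6, with a range of 16.1 to 20.8. Gmnn was 23.0 to 51.8 times as abundant as Cdt1. Cdc6, the ATPase that works with Cdt1, had 14.3 and 10.1 in CBR+SAM, 10.9 and 10.7 in CBR, and 12.9 and 11.4 in DMSO, the lowest level of the 3 genes.

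The 6 subunits of the MCM helicase, which work as a ring with 1 copy of each, averaged 7.18 to 44.2. The median of tested protein-coding genes was 10.4, and only Mcm5 averaged less. Mcm2 was the highest, with 47.7 and 28.6 in CBR+SAM, 58.7 and 42.5 in CBR, and 44.2 and 43.4 in DMSO. Mcm5 was the lowest, with 7.51 and 7.80 in CBR+SAM, 7.16 and 5.74 in CBR, and 7.85 and 7.01 in DMSO. The means were 38.9 for Mcm4, 19.1 for Mcm6, 18.9 for Mcm7 and 16.4 for Mcm3. The Mcm2 to Mcm5 ratio was 3.67 to 8.20 over the 6 libraries, smaller than the gap among the origin recognition subunits. The ranges of Mcm6, Mcm7 and Mcm3 overlapped between neighbours, as did those of Mcm2 and Mcm4.

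Among genes that turn the loaded helicase on, Dbf4 and Cdc7, partners in 1 kinase, also differed. Dbf4, the regulatory subunit, had 274 and 270.2 in CBR+SAM, 267 and 290.3 in CBR, and 239.9 and 263 in DMSO. Cdc7, the catalytic subunit, averaged 16.9 and was 13.7 to 18.3 times less abundant than Dbf4. Of the GINS subunits, which bind between the helicase and Cdc45, Gins4 averaged 92.2, Gins1 64.2 and Gins2 58.0. Gins3 was the lowest of this role, with 6.06 and 4.37 in CBR+SAM, 4.31 and 4.41 in CBR, and 5.22 and 3.32 in DMSO. The Gins4 to Gins3 ratio was 16.5 to 26.2, although the 4 GINS proteins form a complex with 1 copy of each. Cdc45, the helicase cofactor, averaged 57.3, and Mcm10, which helps activate the helicase, averaged 29.0.

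The polymerase genes spanned the widest range of any role. Pola1, the catalytic subunit of the polymerase that starts each strand, had 352 and 415 in CBR+SAM, 433 and 395 in CBR, and 389 and 359 in DMSO. Pold1, the catalytic subunit of the lagging-strand polymerase delta, had 0.245 and 0.270 in CBR+SAM, 0.141 and 0.0879 in CBR, and 0.291 and 0.316 in DMSO, and was the only gene of the 44 under the filter for testing. Pole, the catalytic subunit of the leading-strand polymerase epsilon, had 1.42 and 1.62 in CBR+SAM, 1.54 and 1.09 in CBR, and 1.39 and 1.32 in DMSO. The catalytic subunits of polymerases delta and epsilon were thus at the bottom of the 44 genes in every group, whereas accessory subunits were higher. Pold3, an accessory subunit of polymerase delta, averaged 179 and was 12.6 to 28.4 times as abundant as Pold2, the second subunit of the core, which averaged 7.56. Pole2, the second subunit of polymerase epsilon, averaged 38.0 and was 20.8 to 39.8 times as abundant as Pole. Pola2, the regulatory partner of Pola1, averaged 77.5, and the primase subunits Prim1 and Prim2 averaged 22.5 and 17.0 with overlapping ranges.

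At the fork, Rpa3, the small subunit of the single-strand binding protein RPA, was the most abundant, with 602 and 695 in CBR+SAM, 559 and 558 in CBR, and 563 and 525 in DMSO. It was 16.1 to 27.7 times as abundant as Rpa1, the large subunit, which averaged 28.8, and Rpa2 averaged 22.1. Fen1, the nuclease that trims the flaps of Okazaki fragments, was the lowest, with 3.29 and 2.78 in CBR+SAM, 3.53 and 2.38 in CBR, and 3.16 and 2.24 in DMSO. Pcna, the sliding clamp, averaged 203 and varied least of the tested genes, with its highest library 1.10 times its lowest. In the clamp loader, the large subunit Rfc1 averaged 157, Rfc3 104, Rfc2 80.5, Rfc5 30.7 and Rfc4 14.1. Rfc1 was 9.57 to 12.9 times as abundant as Rfc4. For ribonucleotide reductase, which makes the precursors of DNA, Rrm2, the small subunit, had 68.4 and 49.5 in CBR+SAM, 70.3 and 69.7 in CBR, and 56.3 and 65.1 in DMSO. Rrm1, the large subunit, had 10.3 and 13.6 in CBR+SAM, 14.8 and 14.4 in CBR, and 12.0 and 14.2 in DMSO.

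Some of these values rest on sequence that other gene records also hold. Over the transcripts of GENCODE M21, 10 of the 44 genes shared more than 10% of their stretches of 31 bases with other records together. Another 5 shared none. The shares given for single genes below are each with the named record alone. The protocols describe no strand marking, so reads from overlapping genes on opposite strands cannot be told apart, and values of these genes are uncertain. Gins2 shared 66.2% of its stretches with Gse1, which overlaps it on the other strand and had 5.93 and 5.08 in CBR+SAM, 7.90 and 7.32 in CBR, and 6.76 and 6.26 in DMSO. Orc2 shared 27.9% with Nif3l1, another overlapping gene. Rfc4, at a mean of 14.1, shared 10.5% with Eif4a2, which overlaps it on the other strand and averaged 126. The part of such reads in the Rfc4 values was not tested. Pcna shared 23.3% with the pseudogene Pcna-ps2, listed at 170.0 and 153 in CBR+SAM, 151 and 169 in CBR, and 155 and 148 in DMSO. Pcna and Pcna-ps2 together gave 355 to 370 in CBR+SAM, 360.1 to 379 in CBR and 339 to 363 in DMSO. Mcm7 shared 24.4% with the pseudogene Gm5487, which was listed at a mean of 0.00828.

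The genes differed in transcript GC content, and levels were lower at a high GC content. Across the 44 genes the log2 level had a Pearson r of -0.56 and a Spearman rho of -0.45 with the GC content of the transcript, against -0.21 and -0.21 over 10990 tested protein-coding genes. These are correlations across genes of the same 6 libraries, which share their preparation and are not independent replicates. The 14 genes with a GC content of at least 50% had a median level of 18.7 and reached 92.2 at most. The 30 genes below 50% had a median of 53.1 and reached 791. Pold1 had the highest GC content, 60.7%, followed by Cdt1 with 58.8% and Pold2 with 58.7%. Whether GC content affected the amplification of these RNAs was not tested.

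**Figure D2:**
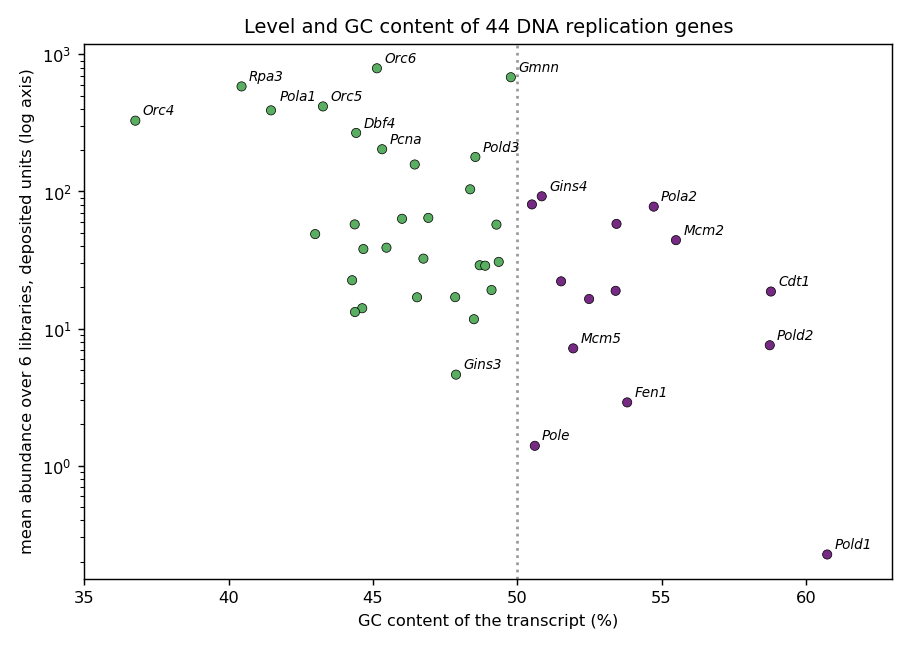
Mean abundance over the 6 libraries (log axis) against the GC content of the transcript in percent, 1 point per gene, with purple for a GC content of at least 50% and green for less. All genes above 100 lie left of the line at 50%, and Pold1, at 60.7% GC and 0.225, lies at the lower right.

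Cytoplasmic polyadenylation elements are short U-rich stretches near the 3′ end through which stored oocyte RNAs gain a poly(A) tail and are translated. The elements TTTTAT and TTTTAAT were searched on the sense strand in the last 100 bases of the 3′ UTR of GENCODE M21 transcripts. One or the other was present in 18 of 40 replication genes with such a window (45%), against 20.2% of 10204 tested protein-coding genes. The tested genes were not matched to the replication genes for base composition or level. The polyadenylation signal AATAAA was found in 70.0% and 66.5% of these sets. Among the 11 genes that averaged 100 or more, 7 held an element (63.6%), against 11 of the 29 genes below 100 that had such a window (37.9%). These shares by level were not worked out over all genes tested. The median level of tested protein-coding genes was also higher with an element, 14.2, than without, 9.84. Shown here, for the most abundant genes of licensing, firing and the fork that hold one, is the element in capitals with its neighbouring bases, 5′ to 3′. The distance from each element to the transcript's end was 49 bases for Orc6, 80 for Gmnn, 65 for Orc4, 1 for Dbf4, 55 for Pola1 and 60 for Rpa3. In Dbf4 the AATAAA ended 21 bases from the transcript's end, so its TTTTAT lies after that signal. The same held for Cdc45 and Rfc3, which are counted above but not shown. Their elements ended 4 and 2 bases from the transcript's end, and their AATAAA 20 and 82 bases from it. Orc4 had no AATAAA in the window.
Orc6: gttttttaaaTTTTATttcactaaat
Gmnn: ttttaatccgTTTTATgtaaatagca
Orc4: ttgtaaataaTTTTATgcacattata
Dbf4: taatgacttaTTTTATa
Pola1: ctatttgtctTTTTATaaagaaaaat
Rpa3: aactaagcctTTTTATaaactttttt
These are matches of letters, and whether the elements act was not tested. Tail lengths were not measured. The kit used here primes cDNA on poly(A), so that an RNA stored with a short tail may be read at less than its abundance.

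E2F factors activate many replication genes in somatic cells, so promoters were searched for their sites. In the RefSeq windows of GRCm38.p6 from 250 bases before to 50 after each start site, 36 of the 44 genes were matched, with 43 windows. The motifs TTTGGCGC, TTTCCCGC, TTTGCCGC and TTTCGCGC were searched on both strands, and sites on opposite strands can overlap. At least 1 was present in 14 of 43 windows (32.6%), against 3.92% of 11033 windows of tested protein-coding genes and 2.27% of all 32851 windows. Among 4625 windows of tested genes within the GC quartiles of the replication genes the share was 5.08%. The CCAAT box was present in 58.1% and 39.2% of the windows of the replication genes and of tested genes. The median level was 19.0 for the 14 genes with an E2F match and 50.7 for the 22 genes with a window but no match. Their ranges overlapped widely, at 0.225 to 390.5 with a match and 2.90 to 791.3 without. Levels by E2F match were not compared over all genes tested. Excerpts are shown for genes from each step, with the matches in capitals on the strand of the gene, and positions counted from 0 at the start site.
Orc1, chr4:108579407-108579454, plus strand, match at -27: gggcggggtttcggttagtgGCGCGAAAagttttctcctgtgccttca
Mcm3, chr1:20820263-20820313, minus strand, matches at 19 and 38: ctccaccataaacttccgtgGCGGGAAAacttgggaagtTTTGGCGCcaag
Mcm5, chr8:75109336-75109387, plus strand, overlapping matches at -153 and -149: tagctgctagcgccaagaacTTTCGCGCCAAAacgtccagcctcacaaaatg
Pola1, chrX:93632266-93632313, minus strand, match at -138: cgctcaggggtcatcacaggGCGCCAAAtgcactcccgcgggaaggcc
Rfc3, chr5:151651181-151651238, minus strand, matches at -10 and 0: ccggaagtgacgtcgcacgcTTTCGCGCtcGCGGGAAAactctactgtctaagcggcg
A match is a run of letters, and binding was not measured.

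The comparison of CBR with DMSO asks what inhibition of serine metabolism did to the RNA levels of these genes. No replication gene passed the test, and most changes were small. Of 43 genes tested, 0 were called at an adjusted p under 0.05 (limma on log2(value + 1), Benjamini-Hochberg over all genes), as were 0% of all 12249 genes. The log2 change of 42 of the 43 genes lay within 0.5 of 0, and the 95% interval of 42 lay within 1, that is within a 2-fold change either way. The median log2 change was 0.05 for the replication genes, of which 26 were positive, and -0.01 for all genes. Both CBR libraries lay above both DMSO libraries for 11 genes (25.6%, against 15.7% of all genes), and below both for 5 (11.6%, against 17.3%).

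Gins2, a GINS subunit, was the only replication gene at an unadjusted p under 0.05, a threshold passed by 2.12% of all genes. It had 47.6 and 53.5 in CBR, against 64.0 and 69.9 in DMSO. The groups did not overlap, and CBR was the lower one. The log2 change was -0.40 with a standard error of 0.15 and a 95% interval of -0.75 to -0.05 (unadjusted p = 0.0318, adjusted p = 1.00 in limma). The overlapping gene Gse1 was higher in both CBR libraries than in both DMSO libraries, by values given above, and the part of shared reads in the Gins2 difference was not tested.

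Pola2, the regulatory subunit of polymerase alpha, had the largest positive difference, with 95.04 and 88.5 in CBR, against 47.5 and 80.7 in DMSO. The 2 DMSO libraries were further apart from each other than DMSO replicate 2 was from either CBR library. The log2 change was 0.56 with a 95% interval of -0.19 to 1.31, the 1 interval of this comparison that reached past 1. It was 0.93 without DMSO replicate 2 (unadjusted p = 0.0291, adjusted p = 1.00 in limma) and 0.18 without DMSO replicate 1, so the DMSO replicates decide its size.

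The other genes chosen for the smallest p among those without overlap differed less. Rfc1, the large clamp loader subunit, had 165 and 183 in CBR, against 139 and 159 in DMSO, a log2 change of 0.22 (-0.13 to 0.57). Pole2 had 40.2 and 43.5 in CBR, against 37.5 and 36.0 in DMSO, a log2 change of 0.18 (-0.17 to 0.53). Pold2 had 9.07 and 7.41 in CBR, against 7.23 and 6.82 in DMSO, a log2 change of 0.20 (-0.23 to 0.63). In each of these the gap between groups was smaller than its 95% half-width. Rpa2, the middle subunit of RPA, had 18.0 and 20.4 in CBR, against 23.2 and 24.3 in DMSO, a log2 change of -0.30 (-0.70 to 0.11). Gins1 had 57.9 and 61.8 in CBR, against 65.1 and 67.9 in DMSO, a log2 change of -0.15 (-0.48 to 0.18). Cdc6 had 10.9 and 10.7 in CBR, against 12.9 and 11.4 in DMSO, a log2 change of -0.15 (-0.63 to 0.33).

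By role, the median log2 change in CBR against DMSO was 0.16 for 8 primase and polymerase genes, of which 6 were positive, and 0.18 for the 2 ribonucleotide reductase genes. It was -0.15 for Cdc6, Cdt1 and Gmnn, of which only Gmnn was positive, 0.00 for the origin recognition complex, -0.02 for the MCM helicase, 0.05 for kinase and helicase activation and 0.04 for the clamp, loader, RPA and Fen1 group. No interval was worked out for these medians. The 95% interval of a single gene had a median half-width of 0.41, which does not measure the spread of a median over genes. Pold1 was not tested. Its values of 0.141 and 0.0879 in CBR lay below 0.291 and 0.316 in DMSO, at a level where few reads decide a value.

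The comparison of CBR+SAM with CBR asks what the added methyl donor changed. No replication gene was called, as against 0.00816% of all genes, which is 1 gene, the pseudogene Gm16550, named after its values were seen. No replication gene reached an unadjusted p under 0.05, a threshold that 3.09% of all genes passed. The median log2 change was -0.03 for the replication genes, of which 20 of 43 were positive, and 0.01 for all genes. Both CBR+SAM libraries lay above both CBR libraries for 7 genes (16.3%, against 15% of all genes) and below both for 7 (16.3%, against 12.5%). The 95% interval lay within 1 for 39 of the 43.

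Rpa2 had 25.8 and 21.2 in CBR+SAM, against 18.0 and 20.4 in CBR, a log2 change of 0.28 (-0.12 to 0.68). Rpa3 had 602 and 695 in CBR+SAM, against 559 and 558 in CBR, a log2 change of 0.21 (-0.12 to 0.54). Mcm5 had 7.51 and 7.80 in CBR+SAM, against 7.16 and 5.74 in CBR, a log2 change of 0.22 (-0.21 to 0.66). All 3 intervals included 0. Gins2 had 59.3 and 54.0 in CBR+SAM, against 47.6 and 53.5 in CBR, a log2 change of 0.16 (-0.19 to 0.52), with replicate 2 of both groups nearly level. With CBR+SAM replicate 1 alone, the log2 changes were 0.42 for Rpa2, 0.11 for Rpa3, 0.20 for Mcm5 and 0.23 for Gins2. Replicate 2 alone gave 0.14 for Rpa2, 0.32 for Rpa3, 0.25 for Mcm5 and 0.10 for Gins2, so that Rpa2 rested more on replicate 1 and Rpa3 on replicate 2.

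Rfc5, a small clamp loader subunit, had the largest negative difference, with 30.7 and 19.5 in CBR+SAM, against 33.0 and 38.6 in CBR. Its log2 change was -0.52 (-1.10 to 0.05), and CBR+SAM replicate 2 was the lowest of the 6 libraries. The change was -0.84 with CBR+SAM replicate 2 alone (unadjusted p = 0.00679, adjusted p = 0.138 in limma) and -0.21 with replicate 1 alone, so its size turns on the replicate. Prim2, the large primase subunit, had 12.7 and 15.9 in CBR+SAM, against 16.4 and 22.6 in CBR, a log2 change of -0.42 (-0.999 to 0.17). Pole2 had 37.4 and 33.6 in CBR+SAM, against 40.2 and 43.5 in CBR, a log2 change of -0.23 (-0.58 to 0.12). None of these intervals excluded 0. Rfc1 had 154 and 144 in CBR+SAM, against 165 and 183 in CBR, a log2 change of -0.22 (-0.56 to 0.13). For these 3 genes, CBR+SAM replicate 1 alone gave log2 changes of -0.57 for Prim2, -0.16 for Pole2 and -0.17 for Rfc1, and replicate 2 alone gave -0.26, -0.31 and -0.27 in the same order.

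By role, 1 of 8 primase and polymerase genes was positive in CBR+SAM against CBR, with a median log2 change of -0.19, and neither ribonucleotide reductase gene was, with a median of -0.27. The 2 comparisons share the CBR libraries, so the signs in CBR against DMSO and in CBR+SAM against CBR are not independent of each other. The loaders Cdc6 and Cdt1 and the inhibitor gene Gmnn were all positive, with a median of 0.14, and so were 4 of 6 MCM genes, with a median of 0.14.

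**Figure D3:**
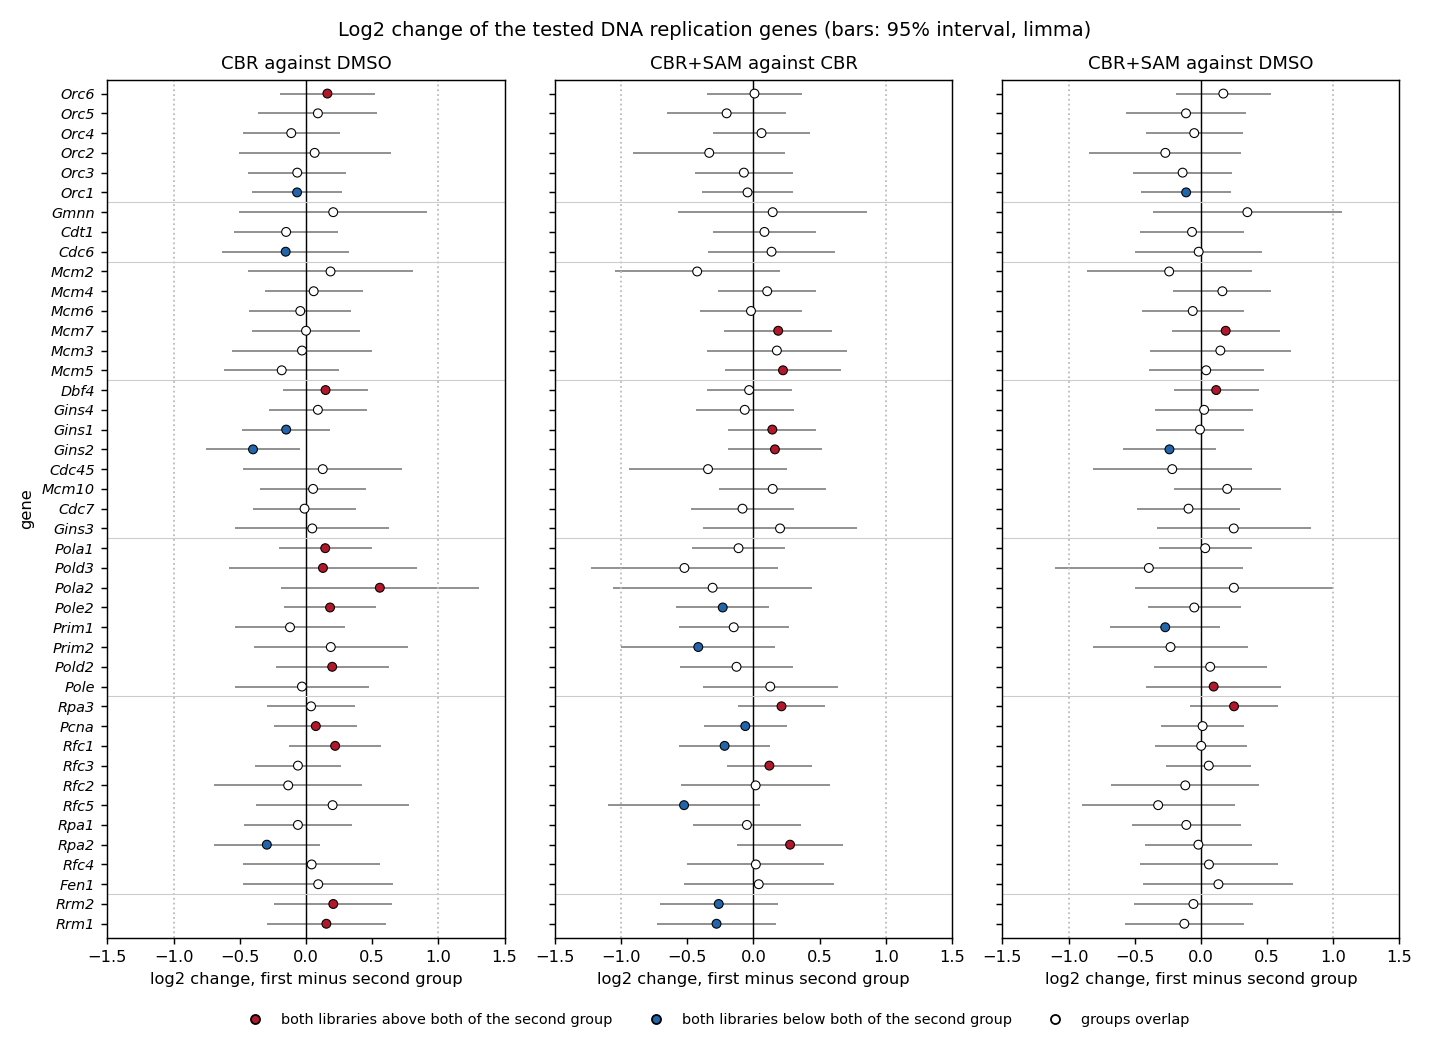
Log2 change of the 43 tested genes with 95% intervals from limma in 3 comparisons, each the first group named minus the second, in the order of the plot of levels, with red where both libraries of the first group lie above both of the second, blue where both lie below, and white where they overlap. Dotted lines mark a 2-fold change. The only interval that leaves out 0 is that of Gins2 in CBR against DMSO, -0.75 to -0.05.

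The comparison of CBR+SAM with DMSO asks whether levels with both additions differed from the solvent control. No replication gene was called, against 0.00816% of all genes, again Gm16550 alone, and none reached an unadjusted p under 0.05, against 2.14% of all genes. The median log2 change was -0.02 for the replication genes, of which 20 were positive, and 0.00 for all genes. Both CBR+SAM libraries lay above both DMSO libraries for 4 genes (9.30%, against 12.4% of all genes) and below both for 3 (6.98%, against 12.1%). The 95% interval lay within 1 for 41 of the 43, and all 43 changes lay within 0.5 of 0.

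The 4 genes above DMSO were Rpa3, Mcm7, Dbf4 and Pole. Rpa3 had 602 and 695 in CBR+SAM, against 563 and 525 in DMSO, a log2 change of 0.25 (-0.08 to 0.58). Mcm7 had 18.2 and 23.3 in CBR+SAM, against 17.8 and 18.1 in DMSO, a log2 change of 0.19 (-0.22 to 0.60), of which replicate 2 made the larger part. The log2 change was 0.12 (-0.21 to 0.44) for Dbf4 and 0.10 (-0.41 to 0.61) for Pole, with the values given above. The 3 genes below DMSO were Gins2, Prim1 and Orc1. Gins2 had 59.3 and 54.0 in CBR+SAM, against 64.0 and 69.9 in DMSO, a log2 change of -0.24 (-0.59 to 0.12). Prim1, the catalytic primase subunit, had 21.8 and 18.8 in CBR+SAM, against 22.3 and 27.2 in DMSO, a log2 change of -0.27 (-0.69 to 0.15). Orc1 differed by a log2 change of -0.11 (-0.45 to 0.23). With CBR+SAM replicate 1 alone, the log2 changes against DMSO were 0.15 for Rpa3, 0.02 for Mcm7, 0.12 for Dbf4, 0.04 for Pole, -0.17 for Gins2, -0.17 for Prim1 and -0.15 for Orc1. Replicate 2 alone gave 0.35 for Rpa3, 0.36 for Mcm7, 0.11 for Dbf4, 0.15 for Pole, -0.30 for Gins2, -0.37 for Prim1 and -0.07 for Orc1. The Mcm7 difference was thus close to 0 in replicate 1.

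The results in CBR+SAM turned on which replicate was used. With replicate 2 alone, 8 replication genes (18.6%, against 19.3% of all genes) were at an unadjusted p under 0.05 against CBR, and 9 (20.9%, against 16.7%) against DMSO. Pold3, which had 201 and 98.0 in CBR+SAM, 206 and 197 in CBR, and 185 and 184 in DMSO, then had the smallest adjusted p of the 43 genes, 0.0709 against CBR with a log2 change of -1.03, and 0.0988 against DMSO with a log2 change of -0.91 (limma). Its value in CBR+SAM replicate 1 lay between the 2 CBR values. With replicate 1 alone, Rpa2 (0.42) and Rrm1 (-0.46) were at an unadjusted p under 0.05 against CBR, 4.65% of the genes against 3.85% of all genes, and none was against DMSO.

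**Figure D4:**
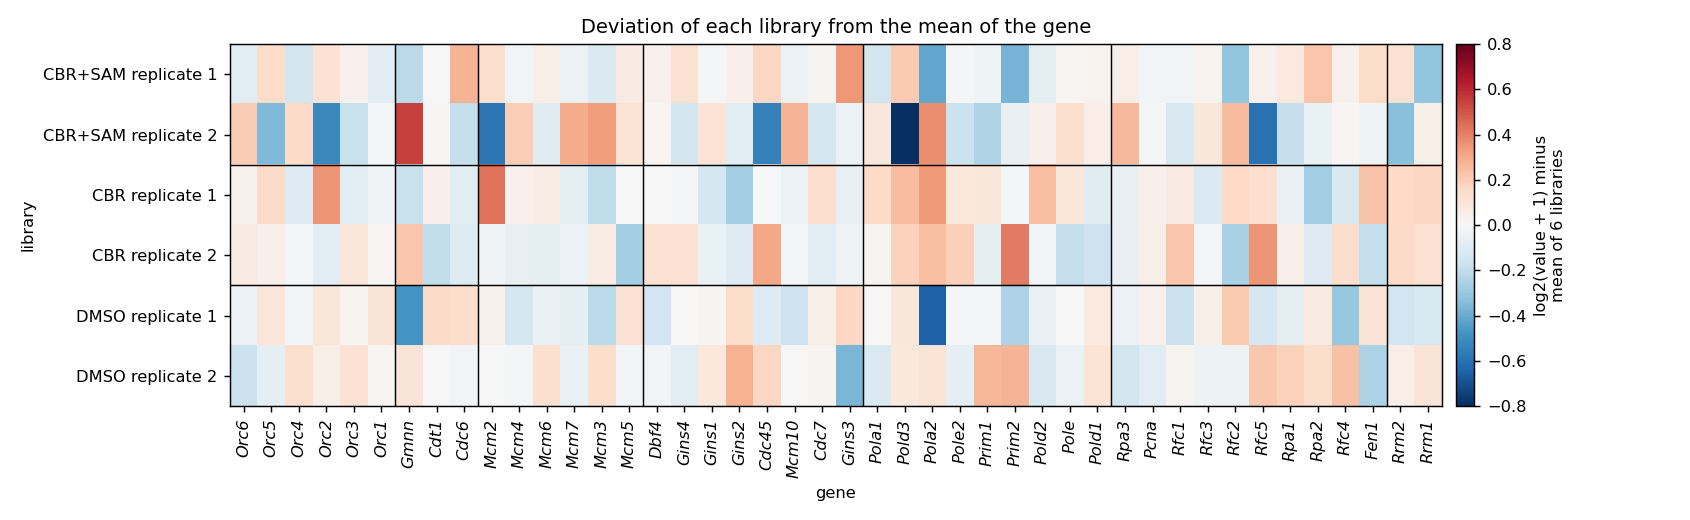
Difference of log2(value + 1) in each library from the mean of the 6 libraries for the 44 genes, red above and blue below, with libraries in rows from CBR+SAM to DMSO and genes in columns by role. The strongest colours lie in CBR+SAM replicate 2, with Pold3 at 98.0 as its lowest and Gmnn at 969 as its highest, and in DMSO replicate 1 for Pola2 at 47.5 and Gmnn at 476.

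Some replication genes went the same way by replicate number in all 3 groups. Orc4, Gmnn, Mcm3, Mcm7, Mcm10, Gins1 and Prim2 were higher in replicate 2 than in replicate 1 in all 3 groups, 7 of 43 (16.3%, against 16.9% of all genes). Orc2, Orc5, Cdc6, Mcm2, Cdc7, Pold3 and Fen1 were lower in replicate 2 in all 3 groups, also 7 (16.3%, against 15.7%). These shares were close to those of all genes tested, and some genes would go the same way by chance. For Gmnn the pseudogene Gm6510, which shares 4.67% of its stretches of 31 bases, went the other way, with 8.55 and 1.98 in CBR+SAM, 8.84 and 4.36 in CBR, and 9.18 and 2.10 in DMSO, and was looked at after its values were seen. Adding the values of both records left the Gmnn pattern, with 579 and 971 in CBR+SAM, 595 and 776 in CBR, and 486 and 715 in DMSO.

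A wider list of 65 genes for other replication factors and the supply of DNA precursors gave 61 tested genes. None was called in any of the 3 comparisons. Groups did not overlap for 13 higher and 7 lower genes in CBR against DMSO (21.3% and 11.5%, against 15.7% and 17.3% of all genes), for 5 and 7 in CBR+SAM against CBR (8.20% and 11.5%, against 15% and 12.5%), and for 7 and 3 in CBR+SAM against DMSO (11.5% and 4.92%, against 12.4% and 12.1%). Dscc1, a subunit of the clamp loader that works in sister chromatid cohesion, was the only one at an unadjusted p under 0.05, in CBR+SAM against DMSO, where 2.14% of all genes were. It had 2.20 and 2.45 in CBR+SAM, 1.44 and 1.64 in CBR, and 0.953 and 1.19 in DMSO, so the 3 groups did not overlap. Its log2 change in CBR+SAM against DMSO was 0.68 (0.20 to 1.17, unadjusted p = 0.0126, adjusted p = 1.00 in limma), on a scale that understates the change of so low a gene. Without DMSO replicate 1 it was 0.60 (-0.08 to 1.28) and missed that threshold. It was 0.39 (-0.10 to 0.88) in CBR+SAM against CBR and 0.30 (-0.19 to 0.78) in CBR against DMSO.

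Other genes of that list differed by less than their intervals. In CBR against DMSO, Top1, which relaxes DNA ahead of the fork, had a log2 change of 0.19 (-0.14 to 0.52), Top2b, a second type of topoisomerase, -0.20 (-0.57 to 0.18), and Mcm8, a relative of the MCM helicase, -0.25 (-0.75 to 0.24). In CBR+SAM against CBR, Dck, a kinase that salvages deoxynucleosides, had a log2 change of 0.43 (-0.11 to 0.96). Cdc25a, the phosphatase that frees cyclin-dependent kinase for S phase, had -0.34 (-0.76 to 0.08) and Rrm2b, a second small subunit of ribonucleotide reductase, -0.33 (-0.76 to 0.09). In CBR+SAM against DMSO, Mtbp, a partner in origin firing, had a log2 change of 0.31 (-0.14 to 0.77), Cdc25a -0.35 (-0.77 to 0.08), and Rnaseh1, which removes RNA from RNA-DNA hybrids, -0.30 (-0.76 to 0.16). All of these intervals included 0. In CBR+SAM against CBR, replicate 2 of CBR+SAM alone gave 0.62 for Dck and -0.57 for Rrm2b, and replicate 1 alone gave 0.24 for Dck and -0.09 for Rrm2b.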

How the data were processed

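cDNA from 1-cell embryos was made with the SMART-Seq v4 kit and sequenced as Nextera XT libraries, per the labels' protocols. The authors' deposited values are a signal, 1 for each gene in each library. Fastp, kallisto, DESeq2 and mm10 are named in the submitters' processing notes, with no versions or roles. The values look like kallisto abundances, but column sums of 956209 to 1059424 show a further scaling, which the sources used here do not describe. No counts or depths come with the values, so no counting interval is given.

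Symbols, transcripts and coordinates came from GENCODE M21 (35820 of 36065 records matched), promoters from RefSeq GRCm38.p6. The filter kept 12249 genes that reached 1 in 2 or more libraries. Their log2(value + 1) entered limma 3.58.1 (R 4.3.3, variance trend on), with all 6 libraries in 1 fit, 3 residual degrees of freedom and group as the only term. P-values are two-sided and were adjusted by Benjamini-Hochberg over all genes, with a threshold of 0.05, and intervals cover 95%. With 2 replicates a group, whose separate origin is not described, p-values speak only for the spread among these libraries. For low genes the added 1 makes a log2 change smaller than the true one.

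The members and lists were chosen with earlier results of these data known. Genes are named as the highest and lowest of a role, or, per comparison, up to 4 higher and 4 lower members with the smallest p among those whose groups do not overlap (2 and 2 for the wider list), or by an unadjusted p under 0.05. Alternatives were 2 other scalings, a pseudocount of 0.1, no filter, a mean of at least 10, a replicate block, the 4 libraries compared alone, protein-coding genes alone, and leaving out each library.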

Additional observations from a re-analysis of the deposited data

How the results depend on the processing

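No replication gene passed the adjusted threshold under any of the 14 alternatives in any comparison, and the smallest adjusted p of a member over all of them was 0.0709 (limma). The log2 changes of the 23 followed member results kept their sign, and Mcm5, Pold2 and Pole had no value with a mean of at least 10.

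Scaling all libraries to the same sum moved the median member change to 0.0141 in CBR against DMSO, -0.0738 in CBR+SAM against CBR and -0.0933 for CBR+SAM against DMSO, while the median of all genes moved to -0.04, -0.02 and -0.08. In CBR+SAM against DMSO the median was 0.0153 with medians set equal and -0.0503 with a mean of at least 10. All genes called numbered 1 in CBR against DMSO with the 4 libraries alone. They numbered 0 in CBR+SAM against CBR with a pseudocount of 0.1, with no filter, with a mean of at least 10 and with protein-coding genes alone, and 0 in CBR+SAM against DMSO with these and with the 4 libraries alone. Members at an unadjusted p under 0.05 numbered 2 in CBR against DMSO (Gins2, Pold1) and 1 in CBR+SAM against CBR (Pold1) with no filter. The cause was not tested.

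Leaving out 1 library gave 0 to 2 genes called in CBR against DMSO, 0 to 9 in CBR+SAM against CBR, and 0 to 3 when CBR+SAM was set against DMSO. Members at an unadjusted p under 0.05 numbered 0 to 1, 0 to 8 and 0 to 9, with the high values without CBR+SAM replicate 1, and Gins2 missed that threshold without DMSO replicate 1, CBR replicate 1 or CBR replicate 2, where 0 members reached it, and without DMSO replicate 2, where Pola2 did. The median member change was -0.00691 to 0.0535, -0.0478 to -0.00781 and -0.0313 to 0.0212.

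With a replicate block, 1 member (Prim2, log2 change -0.42, unadjusted p = 0.0343, adjusted p = 0.903 in limma) reached that threshold in CBR+SAM against CBR, and no other count of members moved. Same-numbered libraries deviated together with r = 0.39 between CBR and DMSO, 0.09 between CBR+SAM and CBR and 0.22 between CBR+SAM and DMSO over 12249 genes, and with only 2 numbers the samples share a number, not a known origin.

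With 2 libraries a group, the median half-width of the members' intervals, which are not adjusted for the number of genes, was 0.41 (log2). For a typical member, an estimated change below 0.41 could not be told from no change by such an interval. A call after adjustment over all genes needs a larger change, and its size was not worked out. The Gins2 change of -0.40 in CBR against DMSO exceeded its half-width of 0.35 and was not called. Changes above 0.41 could thus also have been missed. Unknown depth leaves the precision of low genes such as Pold1, Pole and Fen1 unstated.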
